A study of Homo sapiens with 36 samples.

Results

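Divergent transcripts are long noncoding RNAs that start beside the promoter of a protein-coding gene and run away from it on the other strand. Human gene nomenclature names such a transcript after its neighbour with the suffix -DT, so that FRG1-DT is the divergent transcript of FRG1, called its partner here. The group described here holds every gene whose Ensembl identifier mapped to a symbol ending in -DT and whose mean level over all 36 libraries was at least 2 CPM, the counts scaled to the library's total. RELA-DT and CBARP-DT were left out. The rule kept 203 genes among 53022 with at least 1 count. In all, 582 -DT genes were in the table, and 549 of them had a count. Members were thus chosen by their mean level over all samples and by the omission of those 2 genes, whose response to the guide was known. The lowest members were NQO1-DT at 2.11 CPM, ZCCHC14-DT at 2.09 CPM and CSGALNACT2-DT at 2.05 CPM, and the highest -DT genes left outside were NFE2L1-DT at 1.96 CPM, PARD3-DT at 1.95 CPM and DCAF8-DT at 1.93 CPM.

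Most human promoters are read by RNA polymerase II in both directions. The upstream RNA usually ends early, at a cleavage or Integrator-dependent termination site, and is degraded in the nucleus by the exosome, a ring-shaped RNase complex guided by adaptor proteins. U1 snRNP, which binds splice-site-like sequences, shields the coding direction from early cleavage. A minority of divergent RNAs are long, spliced and stable enough to be annotated as genes, and those are the ones with -DT symbols. RamDA-seq, the total-RNA method used here, primes along the whole RNA and also captures RNA without a poly(A) tail, so that both kinds of divergent RNA can be counted.

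The cells were Jurkat, a human leukaemic T-cell line, from one mCherry+ line with stable dCas9-VP64, a nuclease-dead Cas9 joined to a transcriptional activator. All samples carried that activator, a lentiviral guide vector and 3 days of puromycin selection. The sgRELA group received 1 guide to RELA, the gene of the NF-kB subunit p65, and the sgControl group a non-targeting guide. Transductions were made in triplicate, and cells were collected on days 5, 6 and 7 after transduction. Each of the 18 RNA samples gave 2 libraries from 100 pg of RNA, 1 in each of a first and a second library set, whose counts were added, so that the 6 groups of guide and day had 3 samples each and each day had 6. Totals ran from 18769530 to 29503934 counts per RNA sample, with 18769530 to 22147753 on day 6, the shallowest day. Harvest day and anything else handled by day cannot be told apart, and p-values measure the spread between these transductions of 1 line. All 14 T-lineage markers checked were at 1 CPM or more, with a summed level of 4171 to 4577 CPM on day 5, 4679 to 5573 CPM on day 6 and 5480 to 5962 CPM on day 7. Of the other lineages, 1 of 5 B-lineage and 2 of 4 fibroblast markers reached 1 CPM, with summed levels of at most 62.8 and 15.3 CPM, and no myeloid, epithelial or erythroid marker did. The first libraries of sgControl day 5 replicate 2 and sgControl day 6 replicate 1 had the fewest detected genes. Without those 2 RNA samples 37, 51 and 35 members passed the test described below for day 6 against 5, day 7 against 6 and day 7 against 5, and with them 46, 57 and 37.

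All 203 members had a protein-coding partner in the table. For 199 pairs GENCODE release 29 on GRCh38 gave coordinates for both, and in all 199 the member lay on the strand opposite to its partner. The start sites were a median of 167 bases apart, within 200 bases in 115 pairs and within 1000 bases in 181. In 9 pairs they were more than 10000 bases apart, so that the name -DT there covers genes with distant starts. The annotated bodies overlapped in 62 pairs, by a median of 309.5 bases, and did not overlap in 137. The way the reads were counted by strand is not given in the sources used here, so reads from the overlapping stretch of such a pair cannot be assigned to 1 gene. GENCODE typed 105 members as antisense and 77 as lincRNA genes.

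The promoters of 4 pairs are printed because these members had the smallest p-values between days 5 and 7, a comparison in which their partners were not called or went the other way. Each run is the RefSeq window of 300 bases on GRCh38.p14, 250 before and 50 after the member's annotated start, read 5′ to 3′ on the member's strand. Capitals mark the matches on either strand to GGGCGG (the GC box), CCGGAA (an ETS-type site) and CCAAT (the CCAAT box). The DDHD1-DT window is chr14:53153104-53153403 on the plus strand, the SAP30-DT window chr4:173370649-173370948 on the minus strand, the HK2-DT window chr2:74833938-74834237 on the minus strand and the CENATAC-DT window chr11:118997953-118998252 on the minus strand.
DDHD1-DT: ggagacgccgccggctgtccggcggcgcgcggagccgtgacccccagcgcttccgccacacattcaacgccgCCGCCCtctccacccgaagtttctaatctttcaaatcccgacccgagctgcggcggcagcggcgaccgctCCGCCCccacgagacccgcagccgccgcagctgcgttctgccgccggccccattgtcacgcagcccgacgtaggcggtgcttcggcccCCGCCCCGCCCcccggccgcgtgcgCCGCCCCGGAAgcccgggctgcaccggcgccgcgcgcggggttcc
SAP30-DT: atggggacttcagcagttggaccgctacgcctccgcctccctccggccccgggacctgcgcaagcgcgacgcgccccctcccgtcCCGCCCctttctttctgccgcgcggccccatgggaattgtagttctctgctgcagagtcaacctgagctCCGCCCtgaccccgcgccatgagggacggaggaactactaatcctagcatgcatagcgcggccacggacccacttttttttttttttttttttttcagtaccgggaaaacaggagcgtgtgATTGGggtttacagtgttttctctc
HK2-DT: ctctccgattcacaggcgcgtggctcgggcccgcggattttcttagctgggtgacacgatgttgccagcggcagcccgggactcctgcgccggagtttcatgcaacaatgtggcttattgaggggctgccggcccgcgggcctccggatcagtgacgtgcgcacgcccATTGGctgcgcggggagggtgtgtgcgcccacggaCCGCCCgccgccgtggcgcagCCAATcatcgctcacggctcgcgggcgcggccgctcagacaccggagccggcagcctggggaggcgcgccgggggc
CENATAC-DT: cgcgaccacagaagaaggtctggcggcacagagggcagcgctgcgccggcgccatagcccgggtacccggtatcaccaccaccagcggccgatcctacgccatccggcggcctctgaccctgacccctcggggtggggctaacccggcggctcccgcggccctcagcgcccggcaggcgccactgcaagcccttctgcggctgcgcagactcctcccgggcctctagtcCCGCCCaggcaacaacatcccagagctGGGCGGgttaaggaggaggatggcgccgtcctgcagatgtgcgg
The start of the partner lay 31 bases upstream of the member's start for DDHD1-DT, 136 for CENATAC-DT, 140 for HK2-DT and 256 for SAP30-DT, so the windows of DDHD1-DT, CENATAC-DT and HK2-DT hold both starts. RefSeq and GENCODE place the start of SAP30-DT at different bases, and also those of the partners DDHD1, HK2 and SAP30. Distances and overlaps given for these pairs in other paragraphs are from GENCODE and differ from those of RefSeq. DDHD1-DT had 5 GC boxes and 1 CCGGAA match, HK2-DT 1 GC box and 2 CCAAT matches, SAP30-DT 2 GC boxes and 1 CCAAT match, and CENATAC-DT 2 GC boxes. None of the 4 windows held TATAAA.

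RefSeq windows were found for 160 members and 171 partners, among 35116 windows in all. Of the members' windows 74.4% held GGGCGG, against 73.7% of the partners' and 45.0% of all windows. CCGGAA was in 41.3% of the members', 42.7% of the partners' and 17.2% of all windows. TATAAA, the TATA box, was in 3.75% of the members', 4.68% of the partners' and 11.5% of all windows. CCAAT was in 30.6% of the members' and 34.6% of all windows. TGACGTC, a CRE-type site, was in 6.88% of the members' and 3.45% of all windows, and CATGCGC, an NRF1-type site, in 10.0% and 4.43%. AATAAA, which resembles a poly(A) signal, was in 6.88% and 17.4%, and GTAAGT, which resembles a splice donor, in 0.625% and 6.33%. Median GC content was 69.0% for members, 68.0% for partners and 58.7% for all windows. Members and partners share promoters, so their windows overlap in many pairs, and the shares describe the letters only.

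**Figure D1:**
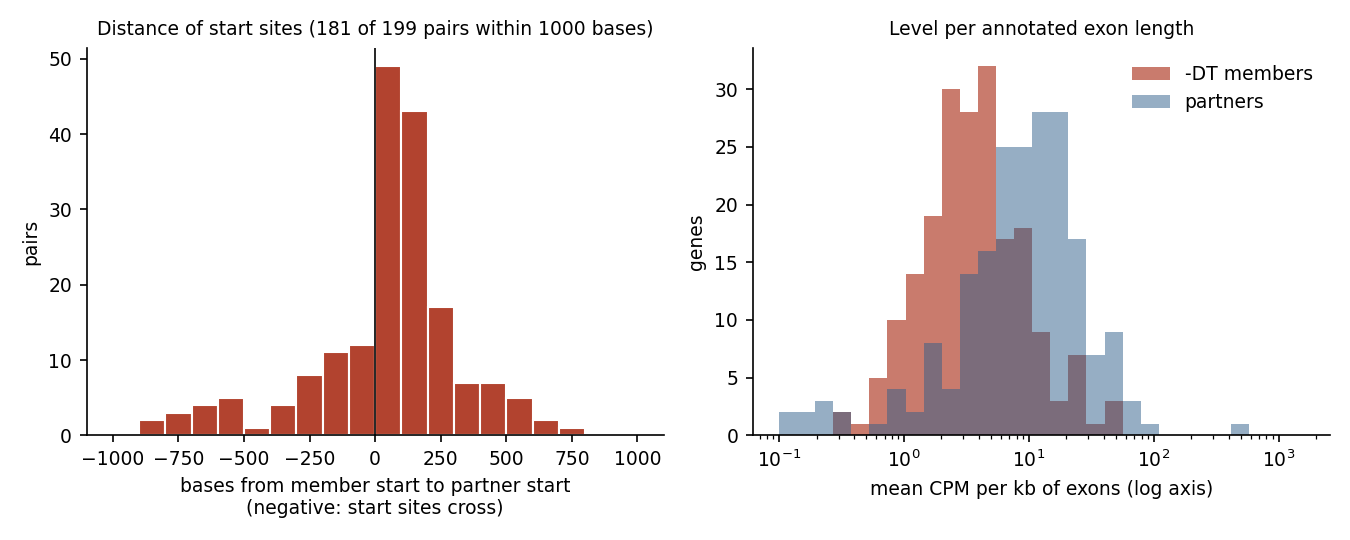
Left, histogram of the distance between the annotated start sites of a member and its partner in bases, with 181 of 199 pairs within 1000 bases. Right, overlaid histograms of the mean level per kilobase of exon of members and of partners, on a log axis in CPM per kilobase. Pairs are not joined in this panel, and 52 of 199 members were above their partner.

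Member levels ran from 2.05 to 212.5 CPM with a median of 5.97 CPM, 63 members at 10 CPM or more and 140 below. The 5 most abundant were TMEM161B-DT, GMDS-DT, GARS1-DT, COX10-DT and DDHD1-DT. Per kilobase of annotated exon the median was 3.49 CPM per kilobase for members and 9.89 for partners, and the median member stood at 35.96% of its own partner's level. In 52 of 199 pairs the member exceeded its partner per kilobase, as DDHD1-DT did with 56.0 against 10.9 CPM per kilobase. TMEM161B-DT stood at 47.8 against 10.5 CPM per kilobase, RSL1D1-DT at 46.9 against 14.3 and RFX3-DT at 29.8 against 5.38. All but 1 member, ERICH2-DT, had a count in all 18 RNA samples, and all 203 passed the filter on low counts, as did 202 of the 203 partners (all but RIPK2). The 2 libraries of 1 RNA sample differed by a median of 0.50 on the log2 scale for members and 0.23 for partners, and by 0.34 for members at 10 CPM or more and 0.60 for those below.

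On day 6 the members took a larger share of all counts than on days 5 and 7. They held 0.218% to 0.235% of counts on day 5, 0.278% to 0.313% on day 6 and 0.217% to 0.229% on day 7, so the day 6 samples overlapped with neither other day. The partners' share ran the other way, at 2.06% to 2.11% on day 5, 1.85% to 1.94% on day 6 and 1.99% to 2.04% on day 7. The median member, taken as log2(CPM + 0.5) relative to its own mean over samples, lay at -0.11 to -0.04 on day 5, 0.15 to 0.27 on day 6 and -0.11 to -0.03 on day 7. On day 6 the 3 sgControl samples (0.22 to 0.27) lay above the 3 sgRELA samples (0.15 to 0.21), a difference seen in the values and not tested. Noncoding RNA as a class moved alongside on day 6. All lincRNA and antisense genes together held 2.39% to 2.57%, 2.98% to 3.06% and 2.56% to 2.63% of counts on days 5, 6 and 7. Members typed as lincRNA or antisense are part of that class. Mitochondrially encoded RNA held 7.43% to 9.28%, 8.33% to 9.87% and 7.41% to 7.85%. The part of these shares in the members' values was not tested. In bulk RNA, fewer cells that make a transcript and less of it per cell cannot be told apart.

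**Figure D2:**
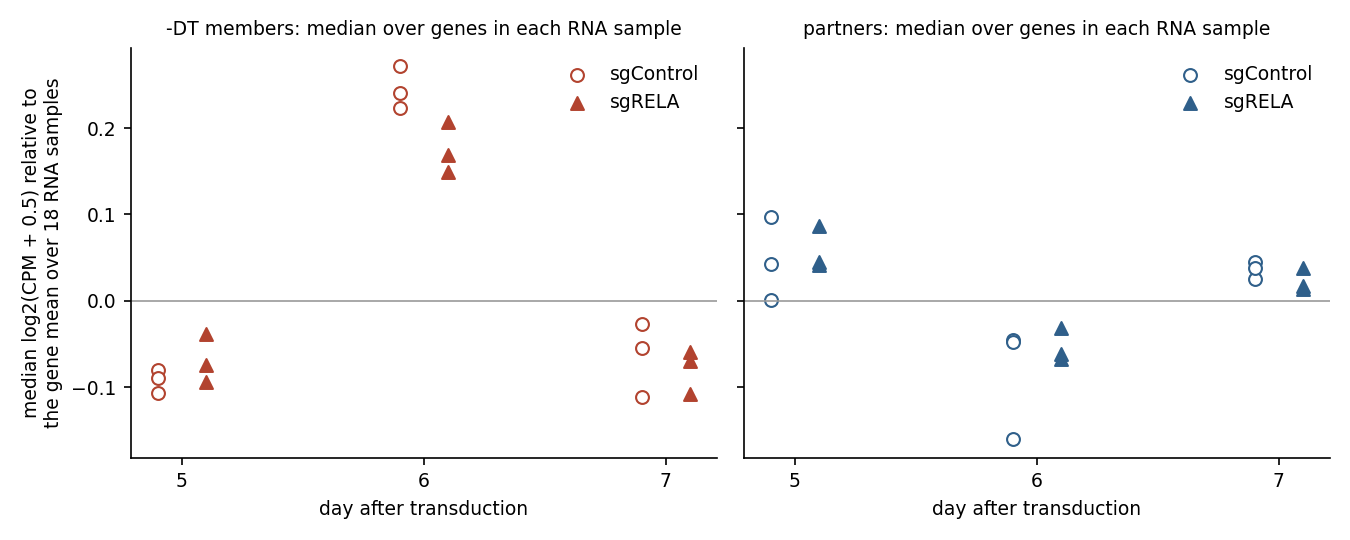
Median over members and over partners of log2(CPM + 0.5) relative to each gene's mean, for each of the 18 RNA samples by day, with sgControl and sgRELA marked. All 6 day 6 samples put the members at 0.15 or above, and every sample of days 5 and 7 puts them below 0.

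Between day 5 and day 6, 43 members rose and 3 fell (edgeR quasi-likelihood test, Benjamini-Hochberg adjusted p under 0.05 over all 27553 genes tested), which is 21.2% and 1.48% of members. Among all genes tested 7.02% were called higher and 9.73% lower, 16.7% in all. The median member change was 0.30 on the log2 scale, from -1.37 to 1.74, with 168 of 203 above 0, beside a median of 0.05 over all genes. In 12 members all 6 day 6 samples lay above all 6 day 5 samples and in 3 below, beside 2.78% and 4.88% of all genes. Of the 202 partners tested 14 rose and 55 fell, with a median of -0.13. Without sgControl day 6 replicate 2, 28 members were called higher instead of 43, and without sgControl day 5 replicate 2, 5 were called lower instead of 3. On day 5 the mean of 11 members lay under the 2 CPM that chose them, so they met it through later days, and 2 of the 43 were among these.

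FRG1-DT had the largest rise. It spans chr4:189780336-189940271 on the minus strand, with its start 517 bases from that of FRG1, a nuclear protein tied to RNA processing, and no overlap. FRG1 has near-identical copies elsewhere in the genome, so the assignment of its reads is uncertain. On day 5 FRG1-DT stood at 10.3 CPM in the lowest sample, 13.2 at the median and 17.5 in the highest, on day 6 at 35.4, 43.1 and 62.3, and on day 7 at 6.19, 6.96 and 10.8. Day 6 therefore overlapped with neither other day. The fitted change was 1.74 ± 0.17 (log2, SE; adjusted p = 6.75e-09) from day 5 to day 6 and -2.46 ± 0.17 (adjusted p = 1.74e-12) from day 6 to day 7. FRG1 itself was lowest on day 6, at 12.2, 8.09 and 11.8 CPM at the median of days 5, 6 and 7, with changes of -0.59 ± 0.17 (adjusted p = 0.0124) and 0.58 ± 0.17 (adjusted p = 0.0109). The log2 ratio of FRG1-DT to FRG1 rose by 2.25 from day 5 to day 6 (exact permutation test of days within guides, two-sided, p = 0.005, the smallest that 400 arrangements allow, unadjusted over 203 pairs). FRG1-DT was named for its rise in the same samples, so this p is no separate support.

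GARS1-DT, beside the gene of glycyl-tRNA synthetase, was at 86.9, 91.5 and 97.0 CPM on day 5 (lowest, median, highest) and 113, 125 and 139 CPM on day 6, without overlap. The rise was 0.45 ± 0.07 (adjusted p = 1.04e-05), while GARS1 fell by 0.58 (adjusted p = 8.54e-08) from a median of 272 to 179 CPM. RAB30-DT, beside the gene of a Golgi Rab GTPase, rose by 0.51 ± 0.09 (adjusted p = 5.27e-05), from 43.0 to 51.6 CPM on day 5 to 62.4 to 75.3 CPM on day 6, with RAB30 at -0.32 (adjusted p = 0.101). ACAD9-DT, beside the gene of a mitochondrial complex I assembly factor, rose by 0.65 ± 0.11 (adjusted p = 0.000103), and its highest day 5 and its lowest day 6 sample both stood at 37.4 CPM. ACAD9 was at 0.13, not called. LRIG2-DT rose by 0.57 (adjusted p = 0.000283) and ZFAND2A-DT by 0.72 (adjusted p = 0.000618), each with no overlap between the days. Their partners fell: LRIG2, a leucine-rich membrane protein, by 0.34 (adjusted p = 0.000932) and ZFAND2A, an arsenite-inducible proteasome-associated protein, by 0.62 (adjusted p = 0.00339). LRIG2 was at -0.09 (adjusted p = 0.557) in the second library set alone and -0.32 (adjusted p = 0.0572) in sgRELA cells alone, and ZFAND2A at -0.38 (adjusted p = 0.329) in sgControl cells alone.

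All 3 members that fell to day 6 fell together with their partners. GNA15-DT dropped from 8.29 to 13.5 CPM on day 5 to 2.91 to 7.19 CPM on day 6, a change of -1.37 ± 0.23 (adjusted p = 5.58e-05), and GNA15, a G-protein alpha subunit of blood cells, changed by -0.87 (adjusted p = 1.09e-06). The pair overlaps by 13600 bases, so shared reads could enter both values. RSL1D1-DT changed by -0.65 ± 0.12 (adjusted p = 0.000298) and RSL1D1, a nucleolar ribosome-biogenesis protein, by -0.49 (adjusted p = 1.38e-05). These annotations lie 64 bases apart. SAP30-DT changed by -0.81 ± 0.19 (adjusted p = 0.00225) and SAP30, a subunit of the Sin3 histone deacetylase complex, by -0.58 (adjusted p = 0.00754), in a pair that overlaps by 478 bases.

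Across the 202 pairs the member's change from day 5 to day 6 exceeded the partner's in 161, by a median difference of 0.41. Member and partner had the same sign in 78 pairs (38.6%), and in 37.5% of pairs with no overlap. The Spearman coefficient between member and partner changes was 0.08 over all pairs and 0.20 over those with no overlap, as a description, since all points come from the same libraries. Both genes were called in 17 pairs: 10 with the member higher and the partner lower, 4 with both higher, 3 with both lower and 0 with the member lower and the partner higher. Among the 10 were FRG1-DT, GARS1-DT, LRIG2-DT, ZFAND2A-DT, ZNF236-DT, TMEM161B-DT and COX10-DT. Called members were mostly higher and called partners mostly lower, so opposite calls can arise without a link within the pair, which was not tested. Of 416 -AS1 pairs, 12 had the -AS1 gene higher and its partner lower, 14 had both higher and 5 both lower. The same sign was found in 58.2% of the -AS1 pairs. ZNF236-DT, beside a zinc finger gene, rose from a median of 1.17 to 3.27 CPM (1.60, adjusted p = 0.00125) while ZNF236 changed by -0.36 (adjusted p = 0.000591). With day 5 under 2 CPM, ZNF236-DT met the minimum through its later days, so its rise is given as a description. The COX10-DT value of 0.26 (adjusted p = 0.0453) lost its call in 14 of the 18 fits that left out 1 RNA sample, down to 0.15 (adjusted p = 0.246) without sgControl day 6 replicate 2. That of COX10 was lost in 9, and that of TMEM161B without sgControl day 5 replicate 3 (-0.25, adjusted p = 0.0683).

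The 4 pairs with both genes higher on day 6, named after their values were seen, were ZNF594-DT (0.64, partner 0.67), TMED2-DT (0.51, partner 0.23), GSK3B-DT (0.48, partner 0.23) and DPY19L3-DT (0.67, partner 0.27). GSK3B encodes a kinase of the Wnt and insulin pathways and TMED2 a cargo receptor of the early secretory pathway. All 4 member calls were lost in some fit without 1 sample, in 2 such fits for ZNF594-DT, 3 for TMED2-DT, 12 for GSK3B-DT and 10 for DPY19L3-DT, with adjusted p up to 0.053, 0.0693, 0.134 and 0.128. GSK3B-DT was at 0.23 (adjusted p = 0.694) in sgRELA cells alone. The partner calls of TMED2 and DPY19L3 were lost in 8 and 9 such fits.

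The rise was seen in pairs with and without overlap and at high and low level. Among the 137 members with no overlap 28 rose and 1 fell (median 0.32), and among the 62 with overlap 14 rose and 2 fell (median 0.27). At 10 CPM or more 29 of 63 rose and 2 fell (median 0.36), and below it 14 of 140 rose and 1 fell (median 0.28). Antisense transcripts with the suffix -AS1, taken at the same minimum of 2 CPM, were measured beside them: 104 of 432 rose and 13 fell, with a median of 0.27, while 44 of 416 genes named before -AS1 rose and 85 fell, with a median of -0.03. All lincRNA and antisense genes tested had a median of 0.27 (383 called higher and 70 lower of 4417), and protein-coding genes one of -0.03 (1171 higher and 2473 lower of 14380). The nearest protein-coding gene on the member's other side rose in 20 and fell in 19 of 160 cases, with a median of 0.04. The -AS1 genes and the lincRNA and antisense genes thus had positive medians as well. The lincRNA and antisense class includes members and -AS1 genes of those types, and no test set the classes against the members.

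**Figure D3:**
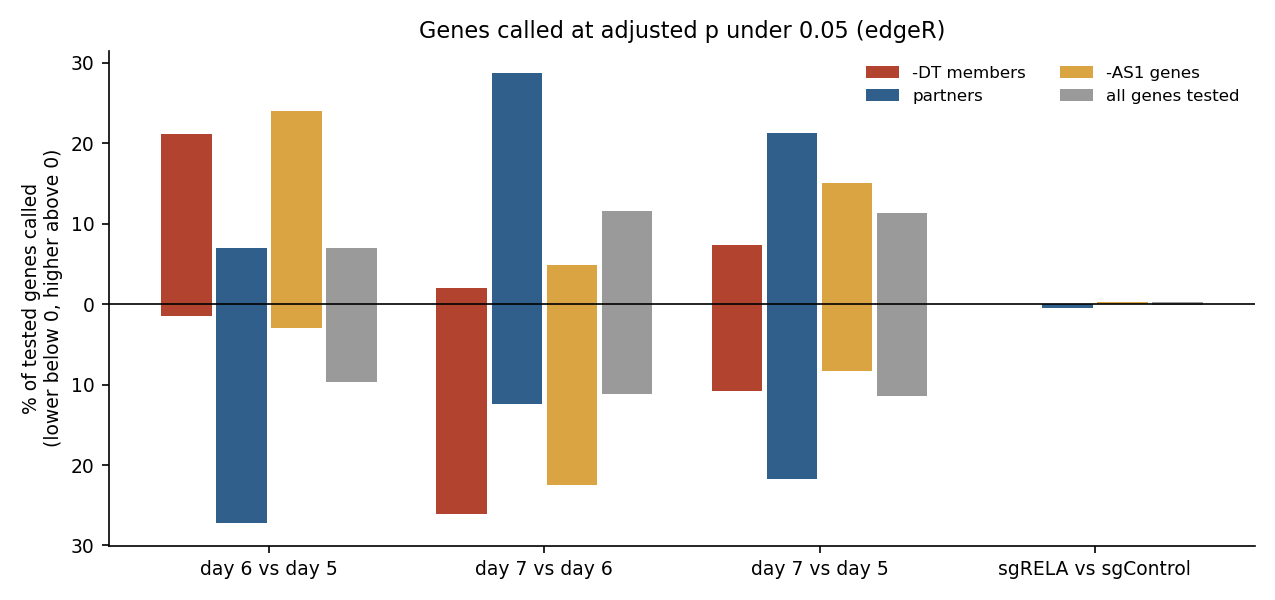
Percent of genes called higher (above 0) and lower (below 0) at adjusted p under 0.05 for members, partners, -AS1 genes and all genes tested in 4 comparisons. From day 5 to day 6 the members stand at 21.2% higher and 1.48% lower, from day 6 to day 7 at 1.97% and 26.1%.

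Between day 6 and day 7, a comparison that shares the day 6 samples with the previous one, 53 members fell and 4 rose, or 26.1% and 1.97%, beside 11.1% and 11.6% of all genes (22.7% in all). On day 7 the mean of 19 members lay under 2 CPM, 8 of them among the 53, so these met the minimum through the earlier days. The median member change was -0.33, from -2.46 to 1.02, with 45 of 203 above 0, beside -0.08 over all genes. All day 7 samples lay below all day 6 samples in 21 members and above them in 2, beside 4.66% and 7.62% of all genes. The partners went the other way more often, with 58 of 202 higher and 25 lower and a median of 0.09. Among -AS1 genes 21 rose and 97 fell, with a median of -0.20.

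The members with the smallest p among those that fell were FRG1-DT, GARS1-DT, RAB30-DT, GMDS-DT, RFX3-DT and METTL14-DT. GARS1-DT went to 71.4, 84.3 and 89.7 CPM on day 7, below every day 6 sample (-0.59 ± 0.07, adjusted p = 4.16e-08), and GARS1 fell further, by 0.32 (adjusted p = 0.000387), with -0.19 (adjusted p = 0.495) in the first library set alone. GMDS-DT, beside the gene of the first enzyme of GDP-fucose synthesis, was at 77.0, 95.0 and 116 CPM on day 5, 115, 127 and 139 on day 6 and 75.6, 79.9 and 98.4 on day 7. Its changes were 0.41 ± 0.09 (adjusted p = 0.000936) and -0.62 ± 0.09 (adjusted p = 2.08e-06), with GMDS at 0.43 (adjusted p = 0.00264) in the second. The GMDS value was 0.19 (adjusted p = 0.422) in the second library set alone. RFX3-DT, beside the gene of a transcription factor of ciliated cells, was at a median of 47.9 CPM on day 5, 55.4 on day 6 and 34.2 on day 7, and day 7 (28.4 to 43.9) did not overlap with day 6 (49.6 to 65.9). Its change to day 7 was -0.69 (adjusted p = 3.75e-06), with RFX3 at -0.11. METTL14-DT, beside the gene of a subunit of the RNA m6A methyltransferase, fell by 1.28 (adjusted p = 5.04e-06), from 10.4 to 20.3 CPM on day 6 to 4.54 to 7.59 CPM on day 7. METTL14, whose annotation starts 27 bases away, was at -0.18 and called in no day comparison.

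CENATAC-DT, DDHD1-DT, HK2-DT and RNASEH1-DT were the 4 members that rose from day 6 to day 7. CENATAC-DT, beside the gene of a minor-spliceosome factor, stood at 1.69, 3.37 and 4.16 CPM on day 5, 2.35, 4.42 and 4.88 on day 6 and 7.31, 8.0 and 9.76 on day 7. All day 7 samples lay above all others, and the change was 1.02 ± 0.24 (adjusted p = 0.0018). CENATAC was at 19.3 to 26.1, 20.1 to 25.7 and 16.3 to 21.4 CPM, a change of -0.33 ± 0.12 to day 7 (adjusted p = 0.0476) whose call was lost in 14 of 18 fits without 1 sample, up to an adjusted p of 0.139 without sgControl day 7 replicate 2. In the second library set alone it was -0.10 (adjusted p = 0.762). RNASEH1-DT, beside the gene of an RNase that cuts RNA in RNA-DNA hybrids, changed by 0.56 ± 0.18 (adjusted p = 0.0239), and its day 6 (8.60 to 19.5 CPM) and day 7 (12.3 to 26 CPM) samples overlapped. RNASEH1 rose by 0.56 ± 0.07 (adjusted p = 1.8e-07). The RNASEH1-DT call was lost without sgControl day 7 replicate 2 (0.35, adjusted p = 0.172), sgRELA day 6 replicate 1 (adjusted p = 0.0692), sgRELA day 6 replicate 2 (adjusted p = 0.0796) or sgRELA day 7 replicate 2 (adjusted p = 0.0625), and the value was 0.23 (adjusted p = 0.701) in sgRELA cells alone.

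In the 202 pairs both genes were called from day 6 to day 7 in 22. In 12 the member fell and the partner rose, in 8 both fell, in 1 both rose (RNASEH1-DT) and in 1 the member rose and the partner fell (CENATAC-DT). FRG1-DT, GMDS-DT and MANEA-DT were among the 12. So were H2AZ1-DT and ARHGAP11A-DT, singled out after their values were seen because their partners, a histone variant gene and a gene of dividing cells, changed most. H2AZ1 has processed pseudogenes, so its level is uncertain. It went from a median of 57.6 CPM to 137 CPM (1.41, adjusted p = 2.08e-12) as H2AZ1-DT went from 4.69 to 2.78 CPM (-0.78, adjusted p = 0.0362). ARHGAP11A changed by 1.00 (adjusted p = 1.76e-11) and ARHGAP11A-DT by -0.89 (adjusted p = 0.0225). The member calls were lost in 8 and 5 of 18 fits without 1 sample, with adjusted p up to 0.138 for H2AZ1-DT and 0.0795 for ARHGAP11A-DT. H2AZ1-DT was at -0.32 (adjusted p = 0.732) in sgRELA cells alone. Same signs were found in 108 of 202 pairs, and the Spearman coefficient across pairs was 0.18. Of 416 -AS1 pairs, 14 had the -AS1 gene lower and its partner higher, 23 had both lower and 12 both higher. The same sign was found in 61.8% of the -AS1 pairs.

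**Figure D4:**
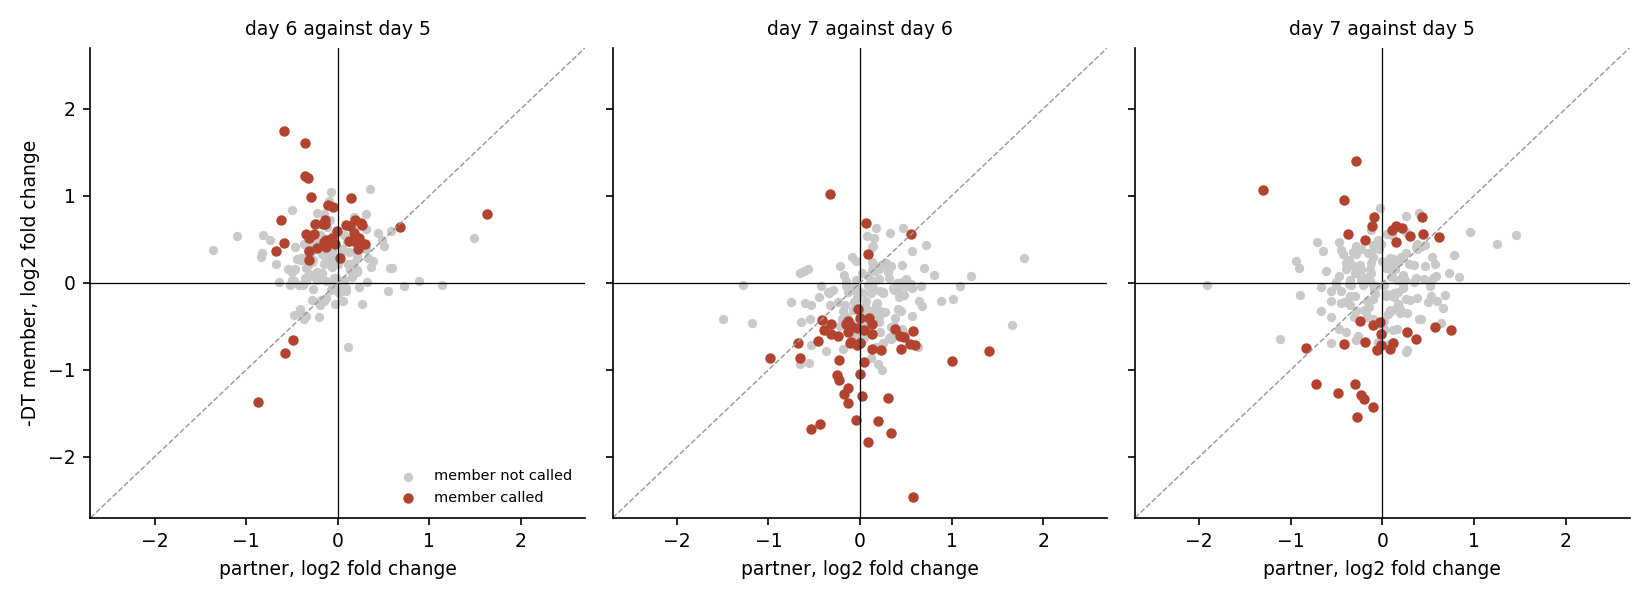
Log2 change of each member (vertical axis) against that of its partner (horizontal axis) in the 3 day comparisons, with called members in red. Points lie mostly above 0 on the vertical axis from day 5 to day 6 and below 0 from day 6 to day 7, and 0, 1 and 1 pairs fall outside the limits of ±2.7.

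From day 5 to day 7, leaving out the day 6 samples, 15 members were higher and 22 lower, or 7.39% and 10.8%, beside 11.3% and 11.4% of all genes. The median member change was -0.01, beside -0.01 over all genes. All samples of day 7 lay above those of day 5 in 7 members and below in 5, beside 6.75% and 6.03% of all genes. The mean of 11 members lay under 2 CPM on day 5 and that of 19 on day 7, so these met the minimum through other days. Of the partners 43 rose and 44 fell. Both genes of a pair were called in 15: 6 with both lower, 4 with both higher, 3 with the member higher and the partner lower and 2 the reverse. Same signs were found in 108 of 202 pairs (53.5%), with a Spearman coefficient of 0.11.

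HK2-DT was among the members that went against a partner. HK2 encodes hexokinase 2, which catalyses the first step of glycolysis, and HK2-DT (chr2:74832655-74833987, minus strand) overlaps it by 7 bases. HK2 stood at 161, 192 and 201 CPM on day 5, 43.1, 72.4 and 123 on day 6 and 65.4, 74.2 and 90.5 on day 7, so both later days lay below day 5. HK2-DT stood at 5.12, 6.96 and 13 CPM, 7.68, 10.0 and 12.6 CPM, and 11.1, 16.4 and 21.8 CPM, with some overlap between days 5 and 7. Over the 2 days HK2 changed by -1.30 ± 0.10 (adjusted p = 4.65e-11) and HK2-DT by 1.06 ± 0.18 (adjusted p = 5.55e-05). The log2 ratio rose by 2.32 (exact permutation test, p = 0.005, unadjusted). HK2-DT and HK2 were picked for opposite calls in these samples, so this p restates the choice. The HK2-DT change was 0.55 in sgControl cells alone (adjusted p = 0.188) and 1.58 in sgRELA cells alone, and 0 of 203 members had a called difference between the guides in a day change.

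RNF32-DT fell by 0.55 (adjusted p = 0.000512) as RNF32, a RING finger gene, changed by 0.75 (adjusted p = 0.0271), from 1.89 to 4.20 CPM on day 5 to 3.69 to 5.50 CPM on day 7. The RNF32 call was lost in 6 of 18 fits without 1 sample, up to an adjusted p of 0.0879 without sgControl day 7 replicate 2. C2orf49-DT, beside the gene of a tRNA ligase complex subunit, changed by 0.56 (adjusted p = 0.0183) and C2orf49 by -0.37 (adjusted p = 0.00218). The C2orf49-DT call was lost without sgControl day 7 replicate 3 (0.49, adjusted p = 0.0729) or sgRELA day 7 replicate 2 (0.50, adjusted p = 0.063). It was also lost in the second library set alone (0.10, adjusted p = 0.849) and in either guide alone (sgControl 0.52, adjusted p = 0.188, and sgRELA 0.60, adjusted p = 0.118). MANEA-DT changed by -0.64 (adjusted p = 0.0229) and MANEA, the gene of a Golgi endomannosidase, by 0.37 (adjusted p = 0.017), calls lost in 5 and 3 of the 18 fits, with adjusted p up to 0.0877 and 0.0692. MANEA was at 0.06 (adjusted p = 0.835) in the second library set alone. ZNF236-DT changed by 0.95 (adjusted p = 0.0451) and ZNF236 by -0.42 (adjusted p = 5.51e-05), with the ZNF236-DT call lost in 14 of 18 fits, up to an adjusted p of 0.133 without sgControl day 5 replicate 3. It was 0.46 (adjusted p = 0.575) in the second library set alone and 0.38 (adjusted p = 0.717) in sgRELA cells alone. The log2 ratio changed by -1.21 for RNF32-DT, 0.89 for C2orf49-DT, -0.98 for MANEA-DT and 1.2 for ZNF236-DT (exact permutation test, p = 0.005 in each). These 4 pairs were picked for opposite calls in the same samples, so these p-values restate the choice and add no support. Since ZNF236-DT met the 2 CPM minimum through its later days, its rise and its ratio from day 5 are given as a description.

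Other members changed while their partner was not called. Among these, DDHD1-DT, SAP30-DT, CENATAC-DT, COX10-DT, B4GAT1-DT and MFF-DT were picked by the smallest p of the log2 ratio between days 5 and 7. The ratio p-values of these pairs for those days restate that choice and are no separate support. DDHD1-DT (chr14:53153354-53157528, plus strand) stood at 41.3, 48.7 and 54.8 CPM on day 5, 54.5, 58.0 and 64.4 on day 6 and 69.8, 72.4 and 82.6 on day 7. All day 7 samples were above all earlier ones, and the change from day 5 was 0.61 ± 0.08 (adjusted p = 5.26e-07). DDHD1, a phospholipase A1 whose annotation lies 72 bases from that of DDHD1-DT, was at medians of 183, 193 and 202 CPM (0.11, adjusted p = 0.335), and the log2 ratio rose by 0.50 (exact permutation p = 0.005).

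SAP30-DT (chr4:173363780-173370446, minus strand) stood at 13, 15.6 and 17.9 CPM on day 5, 6.79, 8.95 and 11.4 on day 6 and 2.84, 6.39 and 9.20 on day 7. Both later days lay below day 5, and the change to day 7 was -1.34 ± 0.19 (adjusted p = 2.62e-06). SAP30 stood at medians of 14.3, 9.83 and 12.7 CPM and was at -0.20 on day 7 (adjusted p = 0.411). The log2 ratio changed by -0.22 from day 5 to day 6 (exact permutation p = 0.155) and by -0.91 from day 6 to day 7 (p = 0.005). The further step of SAP30-DT alone from day 6 to day 7 (-0.53, adjusted p = 0.0425) was lost in 14 of 18 fits without 1 sample, up to an adjusted p of 0.145 without sgRELA day 7 replicate 2.

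CENATAC-DT was higher on day 7 than on day 5 by 1.40 ± 0.24 (adjusted p = 5.56e-05), with CENATAC at -0.28 (adjusted p = 0.0897). The log2 ratio was up by 1.61, and its p of 0.005 (exact permutation test) was part of the choice of this pair. COX10-DT, 1 base from the gene of an enzyme that makes haem O, a precursor of the haem A of cytochrome c oxidase, went from 58.5 to 73.4 CPM on day 5 to 88.8 to 100 CPM on day 7 (0.49 ± 0.09, adjusted p = 9.72e-05), with COX10 at -0.19 (adjusted p = 0.226). B4GAT1-DT, beside the gene of a glucuronyltransferase that modifies dystroglycan, rose by 0.65 (adjusted p = 0.00231) with B4GAT1 at -0.12, and was at 0.42 (adjusted p = 0.326) in the first library set alone. TMEM11-DT rose by 0.65 (adjusted p = 0.00173), with 1 day 7 sample at 32.4 CPM and the median at 19.0, and was at 0.39 (adjusted p = 0.283) in sgRELA cells alone. MFF-DT, beside the gene of a mitochondrial fission factor, changed by -1.42 (adjusted p = 0.00282), from a median of 2.51 CPM to 0.974 CPM, so it met the 2 CPM minimum through earlier days, and MFF was not called. PIK3R5-DT, beside the gene of a PI3-kinase gamma regulatory subunit, changed by -1.29 (adjusted p = 0.0012), with -2.07 in sgControl cells and -0.50 in sgRELA cells.

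Of the 4 pairs with both genes higher on day 7, 3 are given here, with values of 0.62 and 0.21 for ACAD9-DT and its partner, 0.53 and 0.62 for RNASEH1-DT and 0.76 and 0.44 for DPP3-DT. DPP3 encodes a peptidase and was named after its value was seen. ACAD9 lost its call in 9 of 18 fits without 1 sample and RNASEH1-DT in 6, with adjusted p up to 0.126 and 0.22. RNASEH1-DT was at 0.32 without sgControl day 7 replicate 2 (adjusted p = 0.22) and 0.19 (adjusted p = 0.736) in sgRELA cells alone, and ACAD9 at 0.09 (adjusted p = 0.751) in the first library set alone. The ACAD9-DT, RNASEH1, DPP3-DT and DPP3 calls were kept in all 18.

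**Figure D5:**
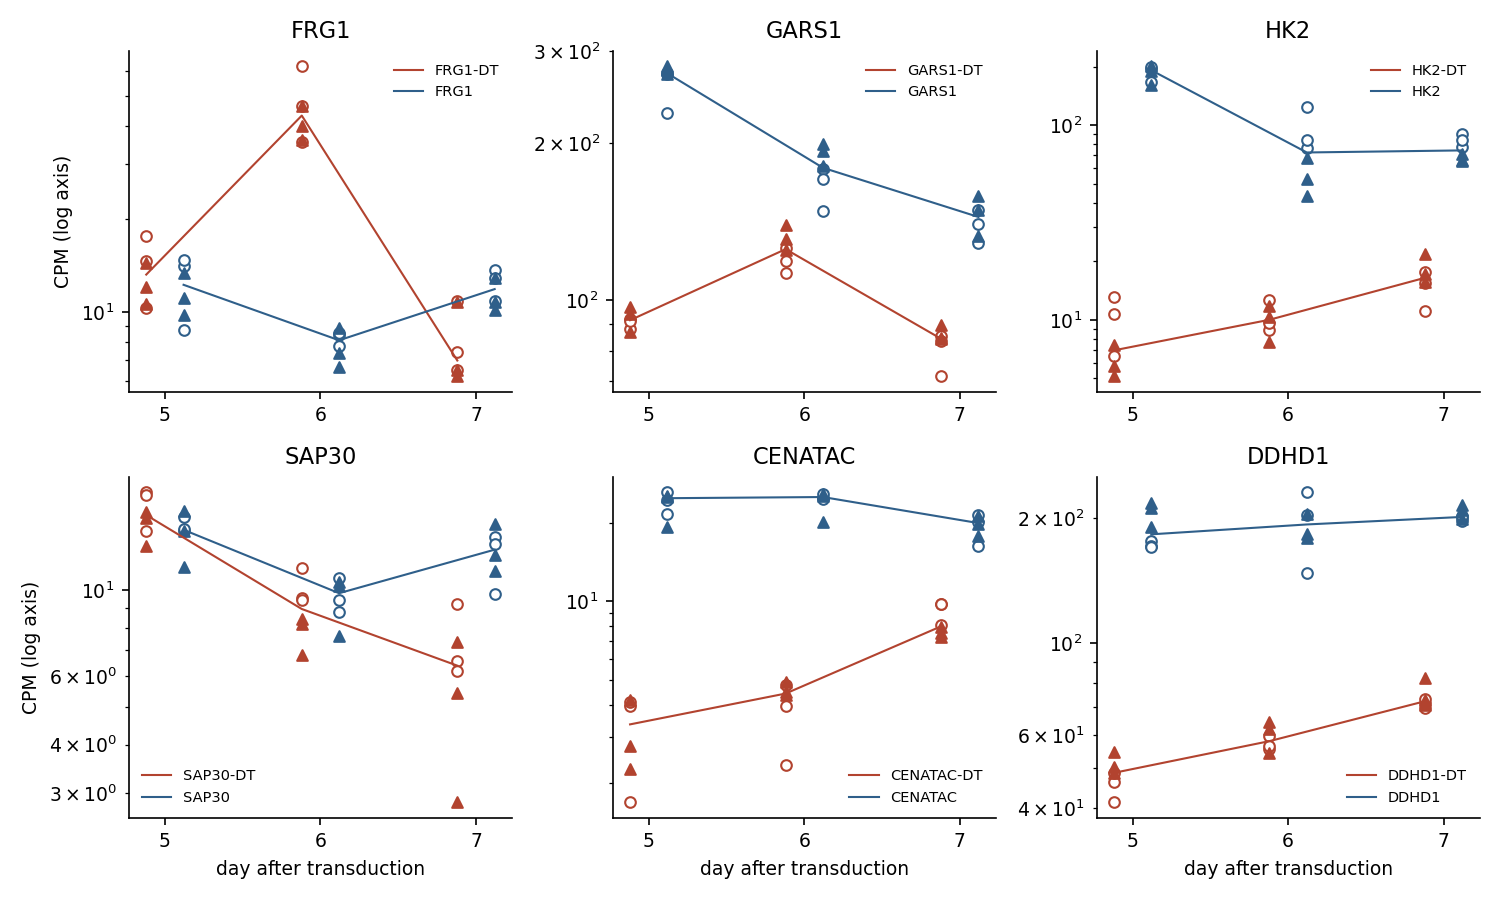
CPM of FRG1, GARS1, HK2, SAP30, CENATAC and DDHD1 and of their divergent transcripts by day on a log axis, with open circles for sgControl samples, triangles for sgRELA samples and lines through the medians of 6 samples. FRG1-DT peaks on day 6 at a median of 43.1 CPM, while HK2-DT rises to 16.4 CPM as HK2 falls to 74.2 CPM.

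Taken per pair, the log2 ratio of member to partner differed between days 5 and 6 in 74 of 203 pairs (exact permutation test, p under 0.05, unadjusted), 69 of them higher on day 6. From day 6 to day 7 it differed in 86, 80 of them lower, and from day 5 to day 7 in 65, 32 higher and 33 lower. The 432 -AS1 pairs gave 127, 125 and 120 such pairs, and most of those also shifted up and then down. From day 5 to day 6, 115 of the 127 were higher, and from day 6 to day 7, 102 of the 125 were lower. From day 5 to day 7, 74 were higher and 46 lower. Such pairs made up 36.5%, 42.4% and 32.0% of the member pairs and 29.4%, 28.9% and 27.8% of the -AS1 pairs. No test set the member pairs against the -AS1 pairs.

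The day changes were also read within each guide. From day 5 to day 6, 18 members rose and 1 fell in sgControl cells (median 0.37), beside 3.29% and 5.58% of all genes, and 11 rose and 3 fell in sgRELA cells (median 0.29), beside 2.57% and 4.34%. From day 6 to day 7, 3 rose and 31 fell in sgControl cells (median -0.39) beside 8.25% and 6.31% of all genes, and 1 rose and 22 fell in sgRELA cells (median -0.25) beside 7.21% and 5.02%. From day 5 to day 7, 11 rose and 12 fell in sgControl cells beside 6.65% and 6.36% of all genes, and 7 rose and 9 fell in sgRELA cells beside 6.35% and 6.06%. Called in the same direction with both guides were 7 members from day 5 to day 6 (of 19 with sgControl and 14 with sgRELA), 15 from day 6 to day 7 (of 34 and 23) and 7 from day 5 to day 7 (of 23 and 16). Over all genes these were 1185 (of 2445 and 1904), 2404 (of 4012 and 3368) and 2234 (of 3585 and 3420). No member had a guide-by-day difference (edgeR, adjusted p under 0.05) in the comparisons of day 6 with 5, day 7 with 6 and day 7 with 5. Of all genes 0.0%, 0.00363% and 0.0% had one. At an unadjusted p under 0.05 there were 14, 7 and 17 members, a level for which the share of all genes is not given here.

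Between sgRELA and sgControl, with counts added over days into 3 sums per guide, edgeR called 0 of 203 members, beside 0.363% of the 28888 genes tested. Because RELA-DT and CBARP-DT were left out, that count is in part set by the choice of members. At an unadjusted p under 0.05 there were 16, a level for which the share of all genes is not given here. DESeq2 called 1 member, MFF-DT, and the share of all genes that it called is not given either. The median member difference was -0.04. All 3 sgRELA sums lay above all 3 sgControl sums in 9 members and below in 10, beside 6.34% and 5.94% of all genes. On days 5, 6 and 7 taken singly edgeR called 0 members at an adjusted p under 0.05, beside 0.138%, 0.214% and 0.0907% of all genes. At an unadjusted p under 0.05 there were 18, 8 and 12 members, a level for which the share of all genes is not given here.

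MFF-DT stood at 1.48, 1.53 and 1.15 CPM in the sgControl sums (1.39 ± 0.208, SD, n = 3) and at 3.15, 2.29 and 3.04 CPM in the sgRELA sums (2.83 ± 0.469, SD, n = 3), without overlap. The difference was 1.03 on the log2 scale (DESeq2 adjusted p = 0.0486, edgeR adjusted p = 0.15). MFF-DT lay under 2 CPM in every sgControl sum and met the minimum through the sgRELA samples, so this difference is a description. The 1 partner called was ST8SIA5, a sialyltransferase gene, at 2.48, 3.95 and 3.44 CPM in the sgControl sums and 1.19, 1.22 and 1.51 CPM in the sgRELA sums (-1.33 ± 0.27, edgeR adjusted p = 0.0254). ST8SIA5-DT, which overlaps it by 2771 bases, stood at 15.7, 14.7 and 14.5 CPM against 14.8, 19.0 and 13.7 CPM (0.08 ± 0.13, adjusted p = 0.968). ST8SIA5 was chosen for mention after its value was seen.

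The genes that end and degrade divergent RNA were read from a list of 60, all tested. From day 5 to day 6, 9 rose and 17 fell, with a median of -0.13, beside 7.02% and 9.73% of all genes. From day 6 to day 7, 28 rose and 2 fell, with a median of 0.22, beside 11.6% and 11.1%. All genes tested include noncoding genes, so the protein-coding partners are given as a second background. Of 202 partners tested, 14 rose and 55 fell from day 5 to day 6, with a median of -0.13. In the next step 58 of them rose and 25 fell, with a median of 0.09. The partners thus moved in the same direction as the list, and no test set the list against either background. Of the 13 nuclear exosome genes 6 fell to day 6 and 1 rose (EXOSC6, 0.45), with a median of -0.31. The catalytic subunits EXOSC10 and DIS3 were at -0.59 (adjusted p = 2.14e-06) and -0.44, and the core subunit EXOSC9 at -0.81 (adjusted p = 9.1e-10). From day 6 to day 7, 8 of the 13 rose and 0 fell, with a median of 0.47, EXOSC9 at 0.79 and EXOSC10 at 0.56. MTREX, the helicase that feeds RNA to the exosome, was at -0.31 and then 0.36. SRRT, which links the cap to early termination, was at -0.32 and then 0.83. Of 15 Integrator genes 1 rose and 3 fell to day 6, near the rates among protein-coding genes (1171 and 2473 of 14380), and 5 rose and 1 fell from day 6 to day 7. Of 14 genes of U1 snRNP and cleavage factors 3 rose and 3 fell, and then 8 rose and 0 fell. Between guides edgeR called 0 of the 60, beside 0.363% of all genes. At an unadjusted p under 0.05 there were 5, a level for which the share of all genes is not given here. Over all genes the medians were 0.05 and -0.08. The 2 day steps share the day 6 samples, so their opposite signs are not independent. The part of these genes in the members' levels was not tested.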

How the data were processed

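RNA of Jurkat cells carrying dCas9-VP64 was measured by paired-end RamDA-seq, per the labels. The deposited values are raw counts per gene, named by Ensembl identifier. The submitters' processing notes name cutadapt 1.18, STAR 2.7.9a and GRCh38. The counting tool, annotation and strand setting are not given in the sources used here. No molecular identifiers are named, so repeated reads of 1 molecule cannot be removed, and counts carry more than sampling error.

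The table held 74628 rows. Symbols were matched for 57693 identifiers. Each RNA sample's 2 libraries were summed, and the 18 sums were fitted with 6 group means in edgeR 4.0.16 (R 4.3.3; TMM, filterByExpr, minimum count 10, quasi-likelihood test, Benjamini-Hochberg over all genes). Day contrasts were averaged over guides. Guides were compared on 3 sums each. CPM values use TMM-scaled totals; TMM factors ran from 0.971 to 1.08. Member-to-partner ratios used a pseudocount of 0.5 CPM and exact permutations of days within guides. The ratio tests and partner counts for day 6 against 5 and day 7 against 6 were added after seeing the data. The scripts were tested on simulated data. Alternatives were DESeq2 1.42.0, its size factors, no filter, minimum levels of 1 and 4 CPM, single library sets, single guides, omitted samples, a replicate block and pseudocounts of 0.1 and 1 CPM. Coordinates came from GENCODE 29 and promoter sequences from RefSeq.

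The members and gene lists were chosen with earlier results of these data known. Named members were the 5 most abundant and, per direction and comparison, up to 6 with the smallest p among those called. Between days 7 and 5, up to 6 pairs called with opposite signs were named. So were up to 6 pairs with only the member called and the smallest p of the log2 ratio. The 3 genes on either side of the 2 CPM minimum were named too. One pair is not reported here.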

Additional observations from a re-analysis of the deposited data

Results flagged for a closer look

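In 18 searches over groups of 6 libraries (3 RNA samples with 2 libraries each), 2 libraries stood apart from the rest of their group by a gap above 0.625 of the group's range, and chance gives such a gap in about 1 in 20 groups. In library 1 of sgControl day 6 replicate 1 the partners held 1.74% of counts, the lowest of its group. In library 2 of sgRELA day 6 replicate 3, 201 members had a count, the lowest of its group. Such counts are whole numbers with a ceiling of 203, so the chance of 1 in 20 need not hold for them. In another group, library 2 of sgRELA day 7 replicate 1 had 200.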

How the results depend on the processing

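Members called numbered 46 from day 5 to day 6, 57 from day 6 to day 7 and 37 from day 5 to day 7, and 12, 21 and 12 in the first library set alone, 23, 35 and 18 in the second, 19, 34 and 23 in sgControl cells alone and 14, 23 and 16 in sgRELA cells alone, settings with fewer counts or samples. Leaving out 1 RNA sample gave 31 to 43, 44 to 57 and 31 to 40, and the 43 members called higher from day 5 to day 6 became 28 without sgControl day 6 replicate 2, while the 3 called lower became 5 without sgControl day 5 replicate 2. DESeq2 called 55, 64 and 44, and 1 between guides, where edgeR called 0 in every fit without 1 sample. The 87 partners called from day 5 to day 7 became 36 in the first library set, 56 in sgControl cells and 54 in sgRELA cells, and 75 to 91 without 1 sample. The 65 pairs with a changed ratio from day 5 to day 7 became 39 and 42 in the first and second library sets and 52 to 64 without 1 sample. The log2 ratio of NQO1-DT to NQO1 changed by 0.76 (exact permutation p = 0.04) and by -0.78 in the first library set alone (p = 0.27); the cause was not tested. No called change of a named member or partner reversed under 27 alternatives, and 21 of 67 member changes and 18 of 49 partner changes kept their call in all 27. Correlations of deviations from group means were -0.066 to 0.039 for 45 same-numbered pairs of samples and -0.068 to 0.084 for 90 others. They cannot exclude that same-numbered samples came from 1 transduction. The replicate block gave 41, 57 and 38 members, 84 partners and 47 pairs. In the first comparison 125 of 140 members under 10 CPM and 32 of the 63 others were not called, and low counts limit what could be detected in the former.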
